A study of Mus musculus with 4 samples.

Results

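The genes described here encode the protein subunits of the mitochondrial ribosome, taken as every gene in the deposited tables whose symbol begins with Mrpl or Mrps and continues with a digit. This rule found 76 genes of the 17550 listed in any library, 47 with large subunit names (Mrpl) and 29 with small subunit names (Mrps). RNA was sequenced from the left ventricle of C57BL/6 mice aged 8 weeks, all of which had undergone experimental myocardial infarction 3 days earlier. The 4 groups were infarcted and non-infarcted tissue from wild-type mice, and infarcted and non-infarcted tissue from mice labelled Neil3-/-, a genotype named for loss of the DNA glycosylase NEIL3, an enzyme of base excision repair. Each group was 1 library, no group came from an uninfarcted heart, and whether a library holds 1 mouse or several is not in the labels.

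The mitochondrial ribosome sits in the matrix and translates the few messages of the mitochondrial genome, all of which encode membrane subunits of the respiratory chain and ATP synthase. Its RNAs come from mitochondrial DNA, whereas all its proteins are encoded in the nucleus, made in the cytosol and imported. Many of these proteins have bacterial relatives, and others were added in the mitochondrial lineage. The heart depends on oxidative phosphorylation, and inherited defects of subunits such as MRPL3 and MRPL44 cause cardiomyopathy in humans. A search of the deposited data for 15 mitochondrially encoded genes by symbol found 0, and such genes were not analysed here.

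The libraries held 14.3 M to 18.2 M uniquely assigned reads, and each of the 76 genes was at 1 RPKM (reads scaled to gene model length and library total) or more in every library, with no fewer than 182 reads. Cardiomyocyte markers were present in all 4 libraries, as the labelled tissue requires. Neil3 itself was higher in the knockout-labelled libraries, at 1.83 RPKM in wild-type and 12.05 RPKM in knockout non-infarcted tissue, and at 3.95 and 18.5 RPKM in infarcted tissue. The tables count reads over the whole gene, so this measurement does not check the deletion, and every genotype comparison below is between libraries as labelled. With 1 library a group there is no spread between replicates and no test. Ratios carry an exact Clopper-Pearson 95% interval of the read shares, which covers counting error only.

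The levels of the genes spanned a wide range around a similar middle in each library. Median RPKM was 32.3 in wild-type non-infarcted and 27.9 in wild-type infarcted tissue, and 32.2 and 25.6 in the corresponding libraries labelled knockout. On the mean of the 4 libraries, 3 genes were at 100 RPKM or more, 67 lay from 10 to 100 RPKM and 6 were below 10 RPKM. Mrpl42, a subunit with no bacterial relative, was highest at a mean of 214 RPKM. It was followed by Mrpl12, the stalk protein that recruits translation factors, at 117 RPKM, by Mrps21 at 107, Mrpl52 at 93.2 and Mrpl30 at 89.7 RPKM. The lowest were Mrps25 at 3.52, Mrpl19 at 5.89, Mrpl17 at 7.03, Mrpl1 at 7.46 and Mrps14 at 7.88 RPKM.

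Low RPKM went with long gene models. The correlation of log2 mean RPKM with log2 listed length was r = -0.73 (Spearman rho = -0.62) over the 76 genes, which share libraries and in which length is also the divisor of RPKM. All 6 genes under 10 RPKM had listed models longer than 1.9 kb. Mrps25, listed at 6076 bases, had reads over only 29.3% to 33.7% of its model, and 10 genes had coverage under 75% in at least 1 library. RPKM of such genes is averaged over a model that reads fill in part, so the order of levels between genes depends on the listed models. The same length enters both sides of a ratio between libraries.

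**Figure D1:**
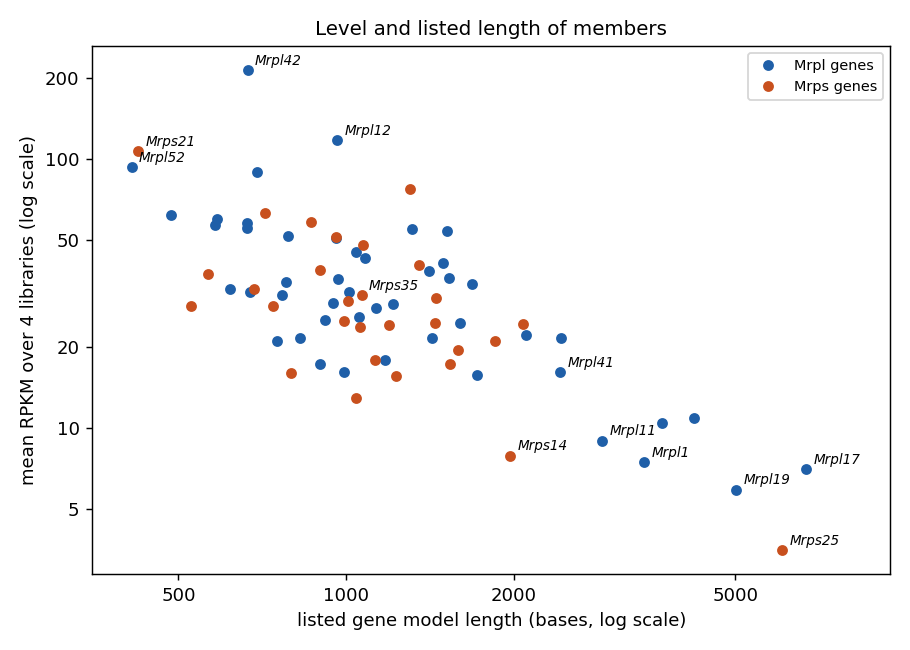
Mean RPKM over the 4 libraries (vertical, log scale) against listed gene model length in bases (horizontal, log scale), 1 point a gene, coloured by large or small subunit name. Mrpl42 stands highest at 214 RPKM, and Mrps25, with 6076 bases, lowest at 3.52 RPKM.

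Infarcted tissue held a smaller share of reads from these genes than non-infarcted tissue in both genotypes. The share was 0.328% of reads (exact 95% interval 0.325% to 0.331%) in wild-type non-infarcted and 0.264% (0.262% to 0.267%) in wild-type infarcted tissue. In the knockout-labelled libraries it was 0.333% (0.330% to 0.336%) and 0.241% (0.239% to 0.244%). Summed RPKM went from 3145 to 2564 in wild type and from 3196 to 2345 in the knockout-labelled libraries.

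On the scale log2(RPKM + 1), the median infarct ratio of the 76 genes was -0.25 in wild type and -0.33 in the knockout-labelled libraries, where all genes compared had medians of 0.21 and 0.24. The ratio was below 0 for 61 genes in wild type and 65 in the knockout-labelled libraries, against 32.8% and 33.7% of all genes, and above 0 for 15 and 11 genes, against 67.2% and 66.3%. Centring the libraries by TMM or median-ratio scaling, which removes most of the positive shift of all genes, moved the medians further down, to -0.47 and -0.48 in wild type and to -0.56 and -0.58 in the knockout-labelled libraries.

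The number of genes past 1.5-fold differed between genotypes and scalings. In wild type, 10 of 76 genes (13.2%) were at least 1.5-fold lower in infarcted tissue, close to the 9.56% of all genes that were, and 1 gene, Mrpl52, was at least 1.5-fold higher (21.6% of all genes). In the knockout-labelled libraries 22 (28.9%) were at least 1.5-fold lower (12.4% of all genes) and none was at least 1.5-fold higher (25% of all genes). Under TMM scaling the lower counts were 26 (34.2%) and 37 (48.7%), against 14.4% and 17.5% of all genes. Under median-ratio scaling they were 28 (36.8%) and 37 (48.7%), against 14.6% and 18% of all genes. A counting interval wholly below 1 was found for 45 genes in wild type (22% of all genes) and 55 in the knockout-labelled libraries (24.1%), and wholly above 1 for 5 (51.8%) and 3 (53.6%). The infarct ratios of both genotypes, which share no library, correlated over the 76 genes at r = 0.84 (Spearman rho = 0.80), and 9 genes (11.8%) were at least 1.5-fold lower in both, against 8.75% of all genes. At a limit of 2-fold, Mrps35 alone was lower in each genotype (3.6% and 6.07% of all genes), and no gene was higher (6.21% and 8.2%).

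**Figure D2:**
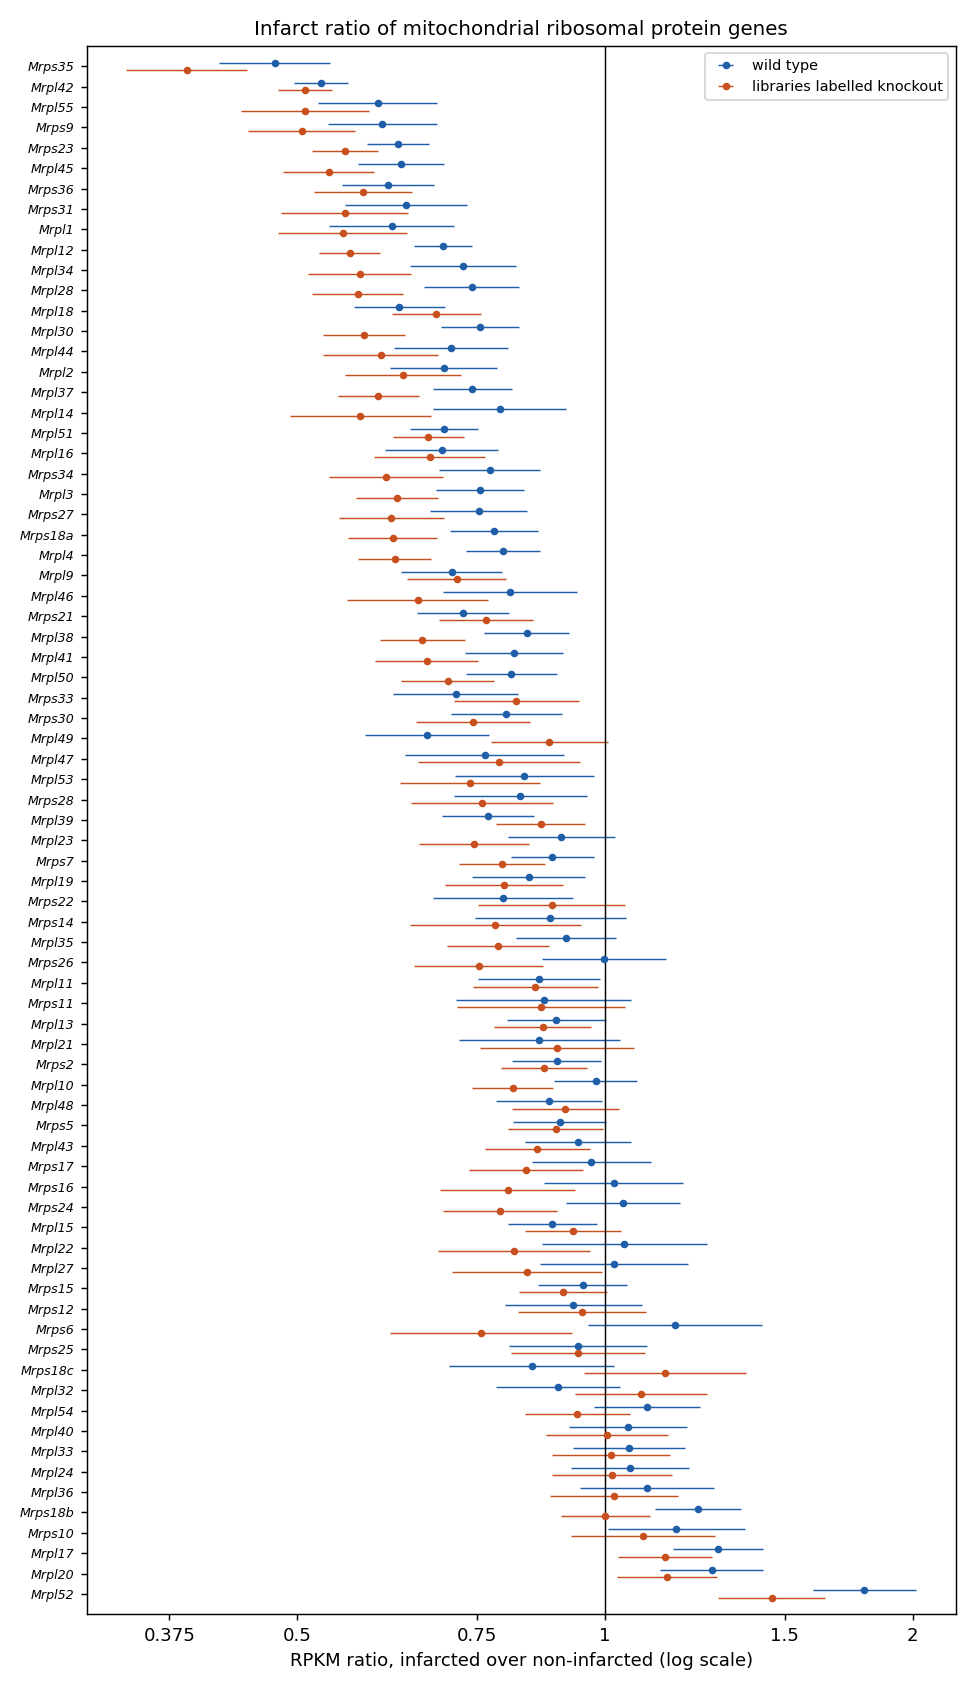
RPKM ratio of infarcted over non-infarcted tissue (horizontal, log scale) for each of the 76 genes, ordered by the mean log2 ratio of both genotypes. Points are single-library ratios in wild type and in the knockout-labelled libraries, and bars are exact 95% intervals for counting error only. Most points lie left of 1, from Mrps35 at the top (0.475 and 0.390) to Mrpl52 at the bottom (1.79 and 1.46).

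Mrps35, a small subunit protein without a bacterial relative, had the lowest infarct ratio in both genotypes. Its level was 44.4 RPKM in non-infarcted and 21.1 RPKM in infarcted wild-type tissue, and 42.6 and 16.6 RPKM in the knockout-labelled libraries. The infarct ratio was 0.475 (0.419 to 0.539) in wild type and 0.390 (0.340 to 0.447) in the knockout-labelled libraries. Both infarcted libraries were thus below both non-infarcted ones, which is no separate result, since Mrps35 was ranked on the same libraries.

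Mrpl42, the most abundant of the 76, followed at 281 and 148 RPKM in wild type and 283 and 144 RPKM in the knockout-labelled libraries. Its infarct ratios, 0.528 (0.497 to 0.561) and 0.509 (0.479 to 0.541), nearly coincided. Mrpl45, which anchors the ribosome to the inner membrane at the exit of the nascent chain, was at 27.6 and 17.5 RPKM in wild type and at 26.9 and 14.5 RPKM in the knockout-labelled libraries. Its ratios were 0.633 (0.574 to 0.697) and 0.537 (0.485 to 0.594).

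The other genes among the 8 lowest were Mrpl55, Mrps9, Mrps23, Mrps36 and Mrps31, with ratios from 0.600 (Mrpl55) to 0.639 (Mrps31) in wild type and from 0.505 (Mrps9) to 0.580 (Mrps36) in the knockout-labelled libraries. Mrps36 keeps its ribosomal name but is a subunit of the 2-oxoglutarate dehydrogenase complex of the citric acid cycle. Mrps36 was at 81.9 and 50.2 RPKM in wild type and at 75.3 and 43.7 RPKM in the knockout-labelled libraries. In all 8 genes both infarcted libraries were below both non-infarcted ones. This is no separate result, since the genes were ranked on the same libraries.

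Mrpl52, a large subunit protein of the mitochondrial lineage, went the other way. It was at 70.7 RPKM in non-infarcted and 127 RPKM in infarcted wild-type tissue, and at 71.3 and 104 RPKM in the knockout-labelled libraries. The ratios were 1.79 (1.598 to 2.02) and 1.46 (1.29 to 1.64). It was the single gene of the 76 to stay above 0 in both genotypes under TMM and median-ratio scaling, at 0.61 and 0.60 on the log2 scale in wild type and 0.30 and 0.28 in the knockout-labelled libraries.

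Mrpl20 was at 50.1 and 63.7 RPKM in wild type and 54.5 and 62.7 RPKM in the knockout-labelled libraries. Mrpl17, a protein near the exit tunnel, was at 6.38 and 8.23, and at 6.30 and 7.21 RPKM. The intervals of both genes lay above 1 in both genotypes, but in the knockout-labelled libraries their log2 ratios of 0.20 and 0.17 turned to -0.03 and -0.04 under TMM and to -0.06 each under median-ratio scaling. Mrps10, Mrps18b, Mrpl36, Mrpl24 and Mrpl33 completed the 8 highest, with ratios of at most 1.23 in wild type and 1.09 in the knockout-labelled libraries, and in the latter all 5 were below 0 on the log2 scale under both scalings. Of the 15 genes above 0 in wild type, 6 remained above 0 under TMM and 4 under median-ratio scaling.

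**Figure D3:**
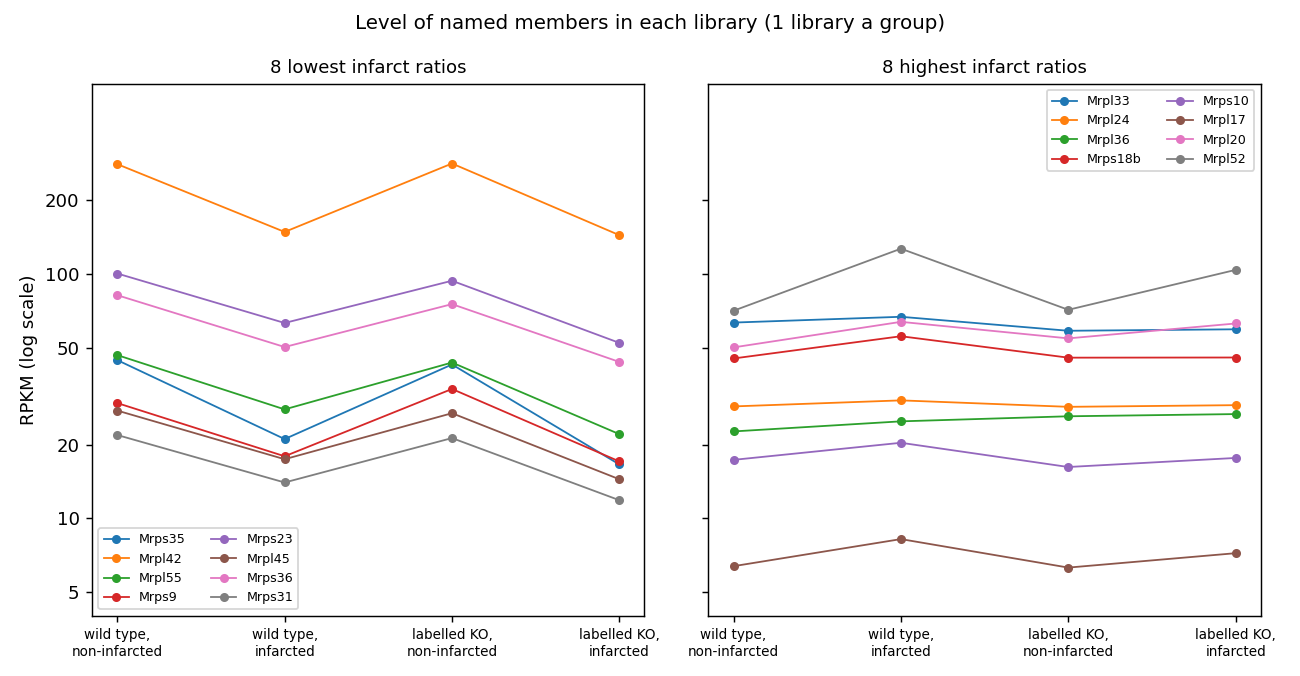
RPKM (log scale) of the 8 genes with the lowest (left) and the 8 with the highest (right) infarct ratio in each of the 4 libraries, 1 point a library; lines join the points of a gene and show no time course. On the left every gene is lower in both infarcted libraries, which is no separate result, since the genes were ranked on these libraries. On the right Mrpl52 has the widest separation, from 70.7 to 127 RPKM in wild type.

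Large and small subunit genes had medians on the same side of 0. The median infarct ratio (log2) was -0.28 and -0.42 for genes with large subunit names, and -0.18 and -0.33 for those with small subunit names, in wild type and the knockout-labelled libraries. The 48 genes with a bacterial relative had medians of -0.16 and -0.31, and the 27 of the mitochondrial lineage -0.31 and -0.49. These groups were not tested against each other.

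In the L7/L12 stalk, where translation factors bind, Mrpl12 was at 144 and 99.9 RPKM in wild type and at 144 and 81.3 RPKM in the knockout-labelled libraries, with ratios of 0.695 (0.651 to 0.742) and 0.563 (0.526 to 0.603). Its partners Mrpl10 and Mrpl11 had ratios of 0.980 (0.893 to 1.08) and 0.863 (0.752 to 0.990) in wild type, and 0.813 (0.742 to 0.891) and 0.855 (0.744 to 0.984) in the knockout-labelled libraries. Around the exit tunnel Mrpl45 was low and Mrpl17 high, with Mrpl22, Mrpl23, Mrpl24 and Mrpl47 between them. In the central protuberance, which faces the small subunit, 5 of 6 genes were below 0 in each genotype. This is close to the 61 and 65 of the 76 genes that were (32.8% and 33.7% of all genes compared). Mrpl40 was the exception in the protuberance at 1.05 (0.922 to 1.20) and 1.01 (0.877 to 1.15). Mrps12, the decoding centre protein, was at 32.0 and 29.8 RPKM in wild type and 35.6 and 33.8 RPKM in the knockout-labelled libraries, with both intervals spanning 1.

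The 3 copies of the S18 protein, which derive from 1 bacterial ancestor and occupy different places in the ribosome, had different ratios. Mrps18a, which lies in the large subunit despite its name, was at 65.7 and 51.2 RPKM in wild type and 71.4 and 44.3 RPKM in the knockout-labelled libraries. Mrps18b was at 45.1 and 55.6, and at 45.5 and 45.5 RPKM. Mrps18c was at 30.0 and 25.4, and at 27.0 and 30.9 RPKM. The interval of Mrps18a lay below 1 in wild type (0.706 to 0.860) and in the knockout-labelled libraries (0.561 to 0.686). That of Mrps18b lay above 1 in wild type only (1.12 to 1.36), where its log2 ratio of 0.30 fell to 0.08 under TMM and 0.07 under median-ratio scaling. The intervals of Mrps18c spanned 1 in both genotypes. Mrps30, the other large subunit protein with a small subunit name, had ratios of 0.801 (0.708 to 0.907) and 0.744 (0.653 to 0.846).

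The other nuclear genes of mitochondrial translation had medians below 0 as well, on the deposited scale and under TMM and median-ratio scaling. The 7 ribosomal proteins under other names had median log2 ratios of -0.18 in wild type and -0.32 in the knockout-labelled libraries, with Ptcd3 lowest at 0.563 and 0.516 of the non-infarcted level. The 11 translation factors had medians of -0.41 and -0.48, and 2 and 5 of them were at least 1.5-fold lower, against 9.56% and 12.4% of all genes. Under either scaling 6 and 6 were, against 14.4% and 17.5% of all genes under TMM and 14.6% and 18% under median-ratio scaling. Among the factors were Taco1, an activator of cytochrome oxidase subunit I translation, at 29.6 and 16.0 RPKM in wild type, and Gfm1, the elongation factor G, at 72.5 and 44.7 RPKM. The 17 tRNA synthetases had medians of -0.17 and -0.28, and the 24 genes of ribosome assembly and rRNA modification -0.19 and -0.33. The 9 compared genes of mitochondrial transcription and mRNA stability had medians of -0.65 and -0.57, with Lrpprc, which stabilises mitochondrial mRNA, at 42.8 and 23.0 RPKM in wild type.

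The 12 regulators of mitochondrial biogenesis went in both directions. In each genotype 5 were at least 1.5-fold lower, against 9.56% of all genes in wild type and 12.4% in the knockout-labelled libraries. At least 1.5-fold higher were 2 in wild type and 4 in the knockout-labelled libraries, against 21.6% and 25% of all genes. Under either scaling 1 and 2 were higher, against 12.7% and 14.8% of all genes under TMM and 12.4% and 14% under median-ratio scaling. The higher counts were thus near the shares of all genes. The median of the 12 regulators was 0.11 in wild type and turned to -0.10 and -0.11 under TMM and median-ratio scaling. In the knockout-labelled libraries the median of 0.31 stayed above 0, at 0.08 and 0.06. Ppargc1a, the coactivator that drives mitochondrial biogenesis, was at 21.5 and 7.21 RPKM in wild type and at 22.8 and 5.63 RPKM in the knockout-labelled libraries. Its nuclear receptor partners Esrrb and Esrrg were at 0.350 and 0.388 of the non-infarcted level in wild type. Myc, which drives growth and ribosome production, was at 10.5 and 34.6 RPKM in wild type and at 9.10 and 29.0 RPKM in the knockout-labelled libraries.

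Set beside neighbouring families, the mitochondrial ribosomal genes lay between complex I of the respiratory chain and the cytosolic ribosome. The 37 complex I genes had median log2 infarct ratios of -0.89 in wild type and -1.18 in the knockout-labelled libraries, with 34 and 36 at least 1.5-fold lower (9.56% and 12.4% of all genes). The 82 compared cytosolic ribosomal protein genes had medians of 0.66 and 0.68, with 63 and 62 at least 1.5-fold higher (21.6% and 25% of all genes). Under TMM scaling the cytosolic medians stayed above 0, at 0.44 in both genotypes. At least 1.5-fold higher were then 10 and 9 genes, against 12.7% and 14.8% of all genes. Under median-ratio scaling 9 and 8 were, against 12.4% and 14%. The scaled counts were thus below the shares of all genes. The cytosolic exception in each genotype was Rpl3l, the striated muscle form of Rpl3, at 54.9 and 12.2 RPKM in wild type.

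**Figure D4:**
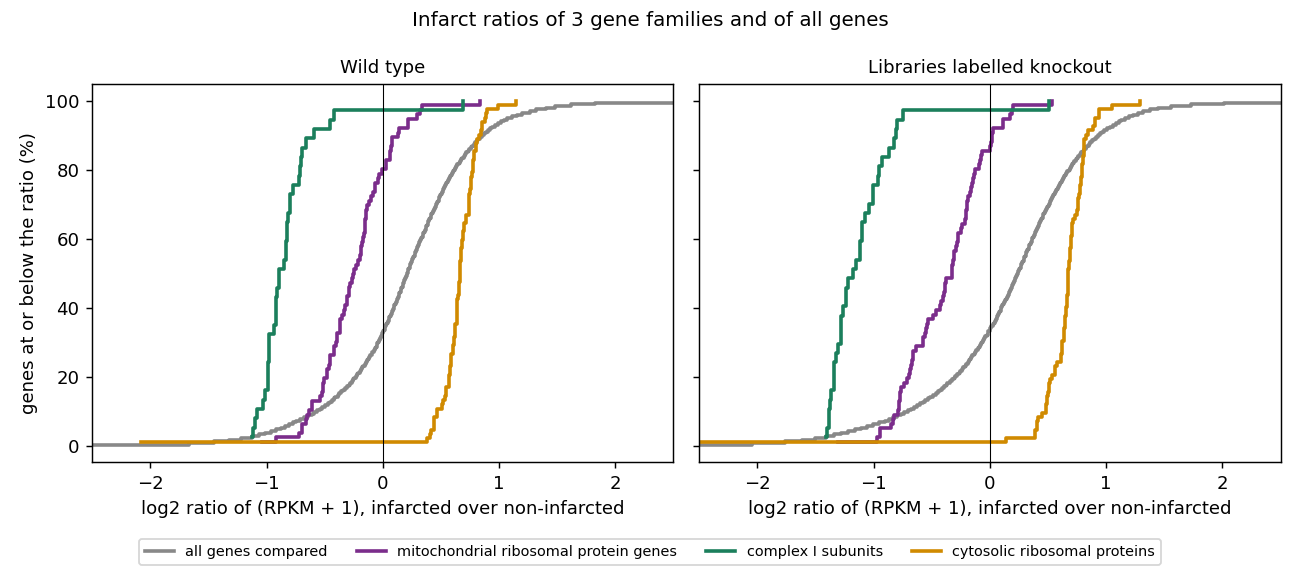
Cumulative percentage of genes (vertical) at or below a log2 infarct ratio of RPKM + 1 (horizontal) in wild type (left) and in the knockout-labelled libraries (right), for all genes compared, the 76 mitochondrial ribosomal protein genes, 37 complex I subunits and 82 cytosolic ribosomal proteins. The curve of the 76 genes, with medians of -0.25 and -0.33, lies between those of complex I and of the cytosolic ribosome and left of all genes.

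Cell type markers moved with the infarct comparison. All 12 cardiomyocyte markers were at least 1.5-fold lower in both genotypes, against 9.56% of all genes in wild type and 12.4% in the knockout-labelled libraries. Their summed levels were 35398 and 17380 RPKM in wild type and 33830 and 11679 RPKM in the knockout-labelled libraries. All 5 neutrophil markers and all 6 macrophage markers were at least 1.5-fold higher in both (21.6% and 25% of all genes). Summed levels were 27.7 and 210.1 RPKM for neutrophils and 377 and 1030 RPKM for macrophages in wild type. In the knockout-labelled libraries they were 24.5 and 246 RPKM and 641 and 1431 RPKM. Of the fibroblast markers, 4 of 6 passed 1.5-fold upward in either genotype (21.6% and 25% of all genes), with sums of 1903 and 2677 RPKM and of 2478 and 4136 RPKM. The counting interval lay below 1 for 2 of the 6 in wild type (22% of all genes) and for 1 in the knockout-labelled libraries (24.1%). Of the endothelial markers, 2 of 5 passed 1.5-fold upward in each genotype (21.6% and 25% of all genes). Their sums were 257 and 402 RPKM, and 250.3 and 387 RPKM. In each genotype 1 of the 5 had an interval below 1 (22% and 24.1% of all genes) and 4 had an interval above 1 (51.8% and 53.6%). The median log2 infarct ratio of the endothelial markers was 0.51 in wild type and 0.46 in the knockout-labelled libraries. The median RPKM over the 5 markers went from 43.0 to 39.4 in wild type and from 41.5 to 37.6 in the knockout-labelled libraries. No marker was at 0 in any library. Under TMM and median-ratio scaling the fibroblast count was 1 of 6 in wild type and 3 of 6 in the knockout-labelled libraries, the endothelial count 1 of 5 in each, and the macrophage count 4 of 6 in the knockout-labelled libraries. Of all genes, 12.7% and 14.8% passed 1.5-fold upward in the 2 genotypes under TMM, and 12.4% and 14% under median-ratio scaling. The part of these cell types in the ratios of the ribosomal genes was not tested, and in bulk tissue fewer cells of a type and less RNA per cell cannot be told apart.

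In non-infarcted tissue the knockout-labelled libraries and wild type were close. The median log2 genotype ratio of the 76 genes was 0.01, equal to that of all genes to 2 decimals, and turned to -0.00 under TMM and median-ratio scaling. No gene was at least 1.5-fold lower (0.613% of all genes) or higher (1.14%), none was 2-fold lower (0.188%) or higher (0.254%), and only Mrpl3 and Mrpl22 differed by more than 1.25-fold on the log2(RPKM + 1) scale. The ratio was below 0 for 34 genes (46.3% of all genes) and above 0 for 42 (53.7%). Counting intervals lay below 1 for 6 genes (10.8% of all genes) and above 1 for 10 (15.2%). Mrpl22, with 214 reads in wild type and 269 in the library labelled knockout, had the highest ratio at 1.31 (1.09 to 1.58). It was followed by Mrpl3 at 1.28 (1.17 to 1.40), Mrpl28 at 1.25 (1.13 to 1.38) and Mrps16 at 1.18 (1.01 to 1.39). Mrps14 was lowest on the RPKM ratio at 0.817 (0.680 to 0.979), with Mrpl32 at 0.821 (0.705 to 0.955), Mrpl15 at 0.840 (0.755 to 0.934) and Mrps22 at 0.862 (0.732 to 1.01).

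In infarcted tissue most of the genes were slightly lower in the library labelled knockout. The median log2 genotype ratio was -0.14, against 0.02 for all genes, and 59 of 76 genes were below 0 (45.5% of all genes) and 17 above (54.5%), a direction of the median that held under both scalings (-0.17 and -0.18). No gene was at least 1.5-fold lower (1.55% of all genes) or higher (1.51%), and none was 2-fold lower (0.241%) or higher (0.249%). Counting intervals lay below 1 for 31 genes (19.4% of all genes) and above 1 for 2 (25.4%).

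Mrps34, a small subunit protein, had the lowest ratio in infarcted tissue at 0.690 (0.608 to 0.783), with 37.6 RPKM in wild type and 26.0 RPKM in the library labelled knockout. Mrps14 followed at 0.721 (0.601 to 0.864), Mrps6 at 0.730 (0.601 to 0.885) and Mrpl14 at 0.760 (0.646 to 0.893). At the other end were Mrpl49 at 1.25 (1.09 to 1.44) and Mrps18c at 1.22 (1.02 to 1.45), the 2 genes with an interval above 1, and Mrps12 and Mrpl21, whose intervals spanned 1.

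In the same libraries cardiomyocyte markers had a median log2 genotype ratio of -0.55, with 12 of 12 below 0. Complex I genes had a median of -0.28, with 37 of 37 below 0. Of all genes, 45.5% were below 0 and 54.5% above, at a median of 0.02. Fibroblast markers had a median of 0.63, macrophage markers of 0.33 and neutrophil markers of 0.16, and all of these were above 0, while all 5 endothelial markers were below 0 at a median of -0.07. In non-infarcted tissue the corresponding cardiomyocyte median was -0.08 and the complex I median 0.02, beside a macrophage median of 0.63 and a fibroblast median of 0.34. The part of tissue composition in the genotype ratios was not tested. How far 2 wild-type libraries of the same region would differ is unknown.

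**Figure D5:**
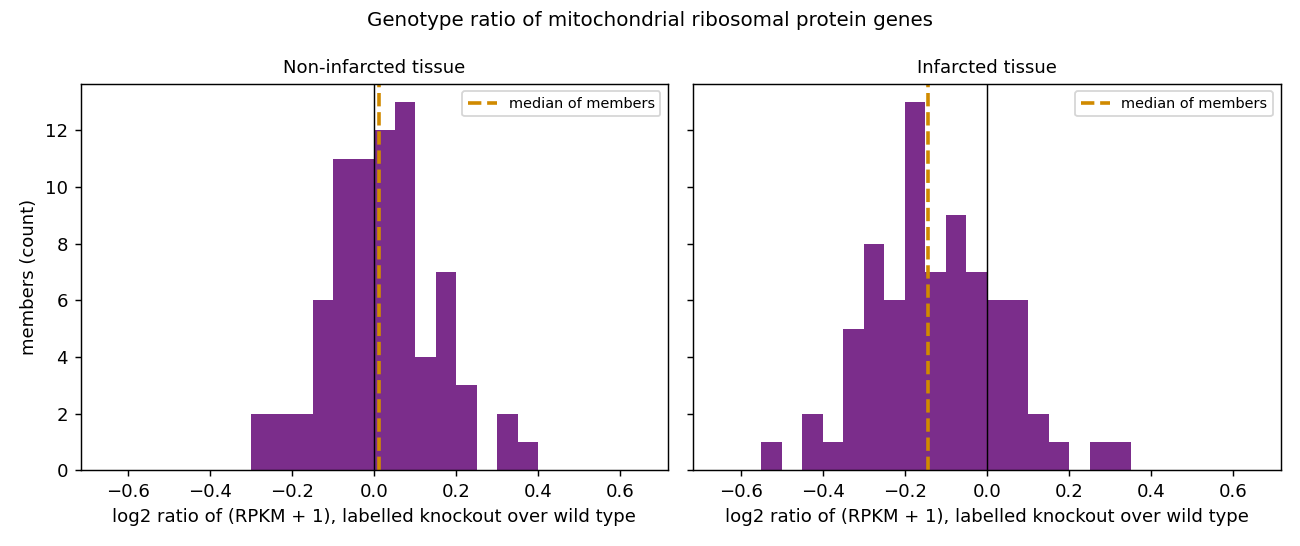
Number of genes (vertical) by log2 genotype ratio of RPKM + 1, libraries labelled knockout over wild type (horizontal), in non-infarcted (left) and infarcted (right) tissue, with the median of the 76 genes as a dashed line. The median is 0.01 in non-infarcted and -0.14 in infarcted tissue.

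The infarct ratio was lower in the knockout-labelled libraries than in wild type for 62 of 76 genes (50.5% of all genes), with a median difference of -0.15 on the log2 scale against -0.00 for all genes. Only Mrps6 was at least 1.5-fold lower by this measure (1.39% of all genes), and none was at least 1.5-fold higher (0.938%), 2-fold lower (0.17%) or 2-fold higher (0.202%). The other 14 genes were above 0 (49.5% of all genes). Intervals of the ratio of ratios, which come from a normal approximation to the read counts on the log scale, lay below 1 for 26 genes (16.2% of all genes) and above 1 for 2 (14%). Mrps6 had 182 and 247 reads in non-infarcted and infarcted wild-type tissue and 197 and 190 reads in the knockout-labelled libraries. Its infarct ratios were 1.17 (0.963 to 1.43) and 0.757 (0.617 to 0.929), a ratio of ratios of 0.647 (0.490 to 0.852). Its exons overlap those of Slc5a3 on the same strand in GENCODE M21, so reads of the 2 genes may be divided by the counting. Mrpl14, Mrps26 and Mrps24 followed at 0.731, 0.754 and 0.758. The highest ratios of ratios were those of Mrps18c at 1.35 (1.05 to 1.74) and Mrpl49 at 1.32 (1.09 to 1.59), with Mrpl32 and Mrps33 next at 1.21 (0.987 to 1.47) and 1.15 (0.942 to 1.39).

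Promoter sequence was examined because nuclear genes of the mitochondrial ribosome are known targets of NRF1 and of ETS factors of the GABP type. RefSeq windows on GRCm38.p6, from 250 bases before to 50 after the start, were found for 67 of the 76 genes (73 windows). Exact matches on either strand were counted, and motifs were searched separately, so that their matches may overlap. The NRF1 motif, a GC-rich palindrome with a free central base, occurred in 16.4% of these windows, against 4.60% of all windows and 9.63% of windows of genes at 1 RPKM or more in any library. The ETS motif CCGGAAG occurred in 32.9%, against 8.86% and 16.9%, and the YY1 motif ATGGCGGC in 16.4%, against 2.24% and 4.69%. The Sp motif GGGCGG occurred in 52.1%, against 35.7% and 61.9%, and the estrogen-related receptor motif AAGGTCA in 5.48%, against 4.72% and 3.21%. The 12 genes with an NRF1 match had median infarct ratios of -0.43 in wild type and -0.58 in the knockout-labelled libraries, and the 55 without -0.19 and -0.31. For ETS the 24 genes with a match had -0.21 and -0.28 and the 43 without -0.29 and -0.38. For YY1 the 12 genes with a match had -0.27 and -0.42 and the 55 without -0.23 and -0.32. For Sp the 33 with had -0.18 and -0.31 and the 34 without -0.30 and -0.39, and for the estrogen-related receptor motif the 4 with had -0.26 and -0.26 and the 63 without -0.25 and -0.33. These splits were made with the ratios known and were not tested.

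The sequences below were chosen with the ratios known, as examples of NRF1 and ETS matches in genes with low and high ratios. Each motif was also found at the other end of the range, since Mrpl17, among the highest, had an NRF1 match, and the low genes Mrps23 and Mrpl18 had ETS matches. Mrpl45 (chr11:97315466-97315715, + strand) had infarct ratios of 0.633 and 0.537, Mrpl12 (chr11:120484387-120484636, + strand) of 0.695 and 0.563, and Mrpl52 (chr14:54426659-54426908, + strand) of 1.79 and 1.46. Each line gives the 250 bases before the RefSeq start on GRCm38.p6, 5′ to 3′, with matches to the 5 motifs in capitals.
Mrpl45: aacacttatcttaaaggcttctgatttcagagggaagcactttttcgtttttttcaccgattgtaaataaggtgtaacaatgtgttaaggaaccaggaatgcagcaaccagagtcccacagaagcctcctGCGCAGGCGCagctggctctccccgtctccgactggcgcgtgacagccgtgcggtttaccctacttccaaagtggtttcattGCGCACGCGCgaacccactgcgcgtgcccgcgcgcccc
Mrpl12: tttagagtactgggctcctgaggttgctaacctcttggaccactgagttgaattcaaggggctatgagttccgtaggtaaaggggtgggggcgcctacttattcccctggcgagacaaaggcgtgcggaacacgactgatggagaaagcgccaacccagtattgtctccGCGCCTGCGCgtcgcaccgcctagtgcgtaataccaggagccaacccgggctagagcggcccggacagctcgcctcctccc
Mrpl52: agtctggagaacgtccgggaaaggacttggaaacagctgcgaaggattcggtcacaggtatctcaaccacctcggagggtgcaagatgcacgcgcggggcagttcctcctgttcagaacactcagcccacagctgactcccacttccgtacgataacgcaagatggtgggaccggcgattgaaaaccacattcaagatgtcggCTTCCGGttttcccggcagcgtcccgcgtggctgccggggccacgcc
The capitals mark NRF1 matches in Mrpl45, on the strand shown, and in Mrpl12, on the opposite strand. In Mrpl52 they mark an ETS match, also on the opposite strand. Letters that match a motif do not show that a factor binds there.

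Several of the genes start beside a gene read in the opposite direction. With partner starts allowed from 200 bases inside to 1000 bases before the start in GENCODE M21, 22 genes had such a partner, and 21 pairs had a partner at 1 RPKM or more. This window was widened after a first list, which allowed no overlap and gave 17 genes and 16 pairs, had been seen. The partners had median log2 infarct ratios of 0.14 in wild type and 0.17 in the knockout-labelled libraries, and the ribosomal genes of the same pairs -0.23 and -0.24. With the narrower window the medians were 0.05 and 0.12 for partners and -0.28 and -0.33 for the ribosomal genes. Over the 21 pairs, which share libraries, the ratios of both genes correlated at r = 0.02 in wild type and -0.09 in the knockout-labelled libraries, and over the 16 pairs at 0.09 and 0.12.

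The Mrpl30 and Mitd1 pair shows how far such neighbours differed, and the stretch between their starts is short enough to print. Mrpl30 was at 105 and 79.6 RPKM in wild type and at 110 and 63.9 RPKM in the knockout-labelled libraries, whereas Mitd1 was at 3.71 and 5.47, and at 3.70 and 8.18 RPKM. The 65 bases between both starts (chr1:37890412-37890476, GRCm38.p6, strand of Mrpl30) hold none of the 5 motifs, and the NRF1 match of Mrpl30 counted above starts further upstream, outside this stretch.
Mrpl30: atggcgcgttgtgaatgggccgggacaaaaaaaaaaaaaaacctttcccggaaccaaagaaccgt
Mrpl49 and Fau, which encodes a cytosolic ribosomal protein fused to a ubiquitin-like one, also differed. Mrpl49 was at 18.2 and 12.2 RPKM in wild type and Fau at 164 and 293 RPKM. Mrpl36 and Ndufs6, a complex I subunit, differed in the opposite way, at 22.7 and 24.96 RPKM for Mrpl36 and 311 and 174 RPKM for Ndufs6. Mrps27 and Ptcd2, which encodes a mitochondrial RNA-binding protein, had similar levels and directions, at 25.6 and 19.2 RPKM and at 26.3 and 16.1 RPKM. Exons of 17 of the 76 genes overlap those of a protein-coding gene, and the strand of the counting is not given in the sources used here, so reads of such neighbours may be mixed. Among the 59 genes without such an overlap, the median infarct ratios were -0.29 and -0.39.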

How the data were processed

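Total RNA of 4 libraries was sequenced on an Illumina HiSeq instrument, per the labels. The deposited tables hold uniquely assigned read counts per gene, RPKM and coverage in percent of the gene model, per the file headers. The submitters' processing notes name build mm9. The aligner, counting tool, annotation and strand setting are not given in the sources used. The deposited RPKM equal the counts divided by listed length and library total. Genes not listed in a library were set to 0 reads, and 46 genes have no symbol.

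Ratios were computed with Python 3.11.15, pandas 2.3.3 and scipy 1.17.1 as differences of log2(RPKM + 1), over genes that reached 1 RPKM in a library of the comparison. Intervals are exact Clopper-Pearson 95% intervals, except for the ratio of ratios, which has a normal approximation on the log scale. The ratio and call scripts were tested on simulated data. Alternative scalings were TMM (edgeR 4.0.16) and median-ratio size factors (DESeq2 1.42.0), used for scaling factors only. Other alternatives were a pseudocount of 0.1, no filter and a 5 RPKM filter.

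Named genes are the 8 lowest and 8 highest on the mean infarct ratio, the 4 lowest and 4 highest by log2 in each genotype comparison and in the difference, the 5 highest and 5 lowest levels, genes with special roles, and up to 4 genes in each other list. Members, lists, motif splits, printed promoters and neighbouring pairs were chosen with earlier results of these data known. Promoters (RefSeq, GRCm38.p6) and neighbours (GENCODE M21) come from another build than the counts, and no coordinates were converted.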

Additional observations from a re-analysis of the deposited data

Results flagged for a closer look

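The genotype ratio of 2 genes had opposite directions in the regions, with a counting interval off 1 in each. Mrpl4 was higher in the library labelled knockout in non-infarcted tissue (log2 ratio 0.17) and lower in infarcted tissue (-0.17), a difference of -0.34. Mrpl38 had log2 ratios of 0.17 and -0.16, a difference of -0.33. The differences were not tested, since each group is 1 library.

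This criterion was narrowed after its results were seen. Opposite signs alone were met by 8 infarct ratios and 37 genotype ratios, 45 in all. Opposite signs with at least 1 counting interval off 1 were met by 5 and 23, or 28 in all. The requirement of both intervals leaves 0 and 2. All of these counts cover the mitochondrial ribosomal protein genes only. The share of all genes that meets each version was not counted. Whether the flagged genes are more or fewer than among all genes is therefore unknown. No criterion on spread within a group could be applied to single libraries.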

How the results depend on the processing

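No paired analysis was possible because each group holds 1 library, so that the groups share 1 replicate number only. An additive fit of tissue and genotype over the 4 libraries, with 1 degree of freedom left for the spread, was not attempted. Leaving out a replicate leaves a group empty. No median of the 76 genes in the infarct comparisons, the infarcted genotype comparison or the difference changed direction under any alternative run. Under TMM scaling the median infarct ratio was -0.47 in wild type and -0.56 in the knockout-labelled libraries, with 26 and 37 genes at least 1.5-fold lower in place of 10 and 22, beside 14.4% and 17.5% of all genes in place of 9.56% and 12.4%. Under median-ratio scaling these were -0.48, -0.58, 28 and 37, beside 14.6% and 18% of all genes. The counts of genes past 1.5-fold thus depend on the scaling. The distance of the median from that of all genes went from -0.46 to -0.48 in wild type under both scalings. In the knockout-labelled libraries it went from -0.57 to -0.59. A scaling shifts all genes of a comparison by nearly the same amount, so this distance could hardly move under it. For the same reason the named genes moved together in the infarct comparisons. With no filter on low values the distance was -0.34 in wild type and -0.42 in the knockout-labelled libraries. The medians of the 76 genes were then unchanged, and those of all genes were 0.09 and 0.10. Without genes whose exons overlap a protein-coding gene, 0 genes in place of 1 were at least 1.5-fold lower in the difference of infarct ratios. That subset, and a set with ribosomal proteins under other names and without Mrps36, were added after seeing the data.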
